A study of Mus musculus with 6 samples.

Results

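The 41 genes described here encode the machinery that copies DNA in S phase: proteins that license replication origins, activate the helicase, synthesise and join the new strands, supply deoxynucleotides and pack the copied DNA into chromatin, together with 3 E2F transcription factors. They were taken by gene symbol from a list of replication and E2F genes, and all 41 were found among the 29667 genes of the read-count table. Poly(A)-selected mRNA from livers of 3 wild-type mice (WT; Prox1 f/f, which carry the floxed alleles and no Cre) and 3 Prox1-cKO mice (Alb-Cre; Prox1 f/f) was sequenced from randomly primed cDNA. Cre was driven by the albumin promoter, a promoter of hepatocytes, and the cells in which it had acted were not measured here. The paper states a C57BL/6 background, chow and pathogen-free housing for its mice. The carcinogen DEN was given to males of both genotypes in its tumour experiments, and whether the sequenced livers had received it is not stated there. For age, sex, treatment, sampling hour, strand of counting and annotation release, nothing is given in the sources used here.

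In an adult liver most hepatocytes rest outside the cell cycle, and the liver is known for the ability of these cells to re-enter it after tissue loss. A cell that prepares to divide first loads the MCM helicase onto origins in G1, with the origin recognition complex, CDC6 and CDT1 as loaders. At the start of S phase CDC45 and the GINS complex join the helicase, which opens the DNA for polymerases alpha, delta and epsilon, the sliding clamp PCNA and its loader RFC. Many of these genes are transcribed in late G1 and S phase under E2F factors, which are held in check by the retinoblastoma family of pocket proteins.

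RefSeq promoter windows on GRCm38.p6, which run from 250 bases before to 50 bases after an annotated start, were found for 34 of the 41 genes. Each window was searched on both strands for 4 words of 8 letters of the kind that E2F factors bind, TTTCGCGC, TTTGGCGC, TTTCCCGC and TTTGGCGG. Words on opposite strands can overlap and then merge into a longer run. At least 1 of these words lay in the windows of 17 of 34 members (50%), against 730 of 27025 genes in the whole table (2.70%). The first and second words alone were in 35.3% of the members' windows and in 0.929% of all genes. The following stretches are shown because they hold such words before the start, which capitals mark. Mcm7 is the only gene with a word among the 6 members of highest mean CPM, and the others were chosen after their values were seen.
Mcm7: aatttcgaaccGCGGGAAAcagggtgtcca
Mcm5: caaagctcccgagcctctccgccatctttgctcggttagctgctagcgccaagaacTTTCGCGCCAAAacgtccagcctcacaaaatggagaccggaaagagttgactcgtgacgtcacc
Mcm6: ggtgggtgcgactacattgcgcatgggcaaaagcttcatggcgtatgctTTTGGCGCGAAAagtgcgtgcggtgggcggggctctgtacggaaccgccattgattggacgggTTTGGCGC
Cdc6: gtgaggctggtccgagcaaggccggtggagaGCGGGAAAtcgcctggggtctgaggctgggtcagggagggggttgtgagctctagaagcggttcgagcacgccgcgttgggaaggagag
Pola1: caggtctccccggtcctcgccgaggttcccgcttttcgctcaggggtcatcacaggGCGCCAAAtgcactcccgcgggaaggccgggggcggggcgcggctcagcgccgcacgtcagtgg
Uhrf1: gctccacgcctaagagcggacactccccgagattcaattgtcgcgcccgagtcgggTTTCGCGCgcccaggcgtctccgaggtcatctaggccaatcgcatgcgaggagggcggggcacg
All are read from 5′ to 3′ on the strand of the gene. The Mcm7 stretch, chr5:138172030-138172059 on the minus strand, lies in exons of Mcm7 and of the divergent gene Ap4m1. The Mcm5 stretch at chr8:75109300-75109419 (plus strand), the Mcm6 stretch at chr1:128359745-128359864 (minus) and the Pola1 stretch at chrX:93632230-93632349 (minus) overlap no annotated exon in GENCODE M21. The same was true of the Cdc6 stretch at chr11:98907982-98908101 and of the Uhrf1 stretch at chr17:56304072-56304191, both on the plus strand, which lie inside the longest annotated span of their genes, in introns. The Mcm5 run joins a word with its overlapping partner on the other strand, and Mcm6 has such a run and a further word. A match is a description of letters, and binding was not measured. The cell cycle element TTTGAA was in 17.6% of the members' windows and 20.2% of all genes, and the CCAAT box in 61.8% and 41.1%.

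Library totals were 18066205 to 20537091 reads. Levels are given as CPM, a gene's reads relative to the library's size after TMM scaling, whose factors ranged over 1.09 to 1.20 for WT and over 0.842 to 0.893 for Prox1-cKO; scaling to library totals alone moved the log2 fold changes of all genes by a median of −0.41. Prox1 itself was 558, 729 and 837 CPM in WT and 212, 179 and 172 CPM in Prox1-cKO, with no overlap (log2 fold change −1.91 ± 0.20 (SE), adjusted p = 6.05e-04 by the quasi-likelihood test of edgeR). Among the markers of liver cells, those of hepatocytes were high in every library, at a summed 74230 to 86710 CPM in WT and 119800 to 151000 CPM in Prox1-cKO. WT replicate 3 stood apart from the other WT libraries: its log CPM correlated at 0.969 and 0.975 with them across genes, while they correlated at 0.987 with each other. The study describes its replicates as biological, and an exact permutation test of 3 against 3 cannot go below 0.1, so the p-values are those of edgeR, which shares the spread across genes.

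Most of the replication genes were lower in the Prox1-cKO livers. Of the 41 genes, 30 were lower in Prox1-cKO at an adjusted p under 0.05, 9 were not called and 2, Orc1 and Fen1, had too few reads to be tested. This compares with 2999 of the 14843 genes tested (20.2%) that were lower and 2087 (14.1%) that were higher. The count of members that were higher was 0 with edgeR, with DESeq2 and with limma, and 1 at an unadjusted p under 0.05. In 31 of the 39 genes tested every Prox1-cKO library lay below every WT library, as in 26.6% of all genes tested, and 27 were lower by at least 2-fold, against a share of 14.1% of all genes. The median log2 fold change was −1.42 over the 39 genes and −0.02 over all genes tested.

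The low-read filter bears on these counts. Of the 39 genes, 7 (Cdc6, Gins2, Gins3, Pole2, Chaf1a, Chaf1b and E2f2) passed it through the WT libraries alone, since fewer than 3 Prox1-cKO libraries reached the cutoff of 0.515 CPM, and such genes could hardly have passed without a difference, so their calls, and the counts and medians that hold them, are descriptions. Of the 32 genes past the cutoff in every library, 23 were lower, and without any filter beyond 1 read 31 of the 41 were. Over all genes 3394 of 27546 were lower without that filter. With at least 10 reads in every library, where the members again gave 23 of 32, it was 2379 of 12888. In whole liver, fewer dividing cells and less of these mRNAs per cell cannot be told apart.

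Levels differed between libraries as well as between genotypes. The summed level of the 41 genes was 557, 441 and 341 CPM in WT and 257, 259 and 280 CPM in Prox1-cKO, a mean of 446 ± 108 against 265 ± 13.1 (SD, n = 3 each). The median gene was at 10.2, 7.83 and 5.74 CPM in WT and at 2.62, 2.62 and 2.84 CPM in Prox1-cKO. WT replicate 1 was therefore high and WT replicate 3 low, while the Prox1-cKO libraries lay close together. WT replicate 1 was the highest of the 6 libraries for 34 of the 41 genes and WT replicate 3 the lowest WT library for 38. WT replicate 3 lay above all 3 Prox1-cKO libraries for 32 of the 41 genes, and the others did so for 36 each. The share of all genes that do so was not counted for single WT libraries. Leaving out WT replicate 1 gave 23 genes lower and leaving out WT replicate 3 gave 32, and the median log2 fold change was then −1.19 and −1.58. The count over all genes moved too, from 2999 of 14843 lower to 2186 of 15090 and 3468 of 15327 in these settings.

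**Figure D1:**
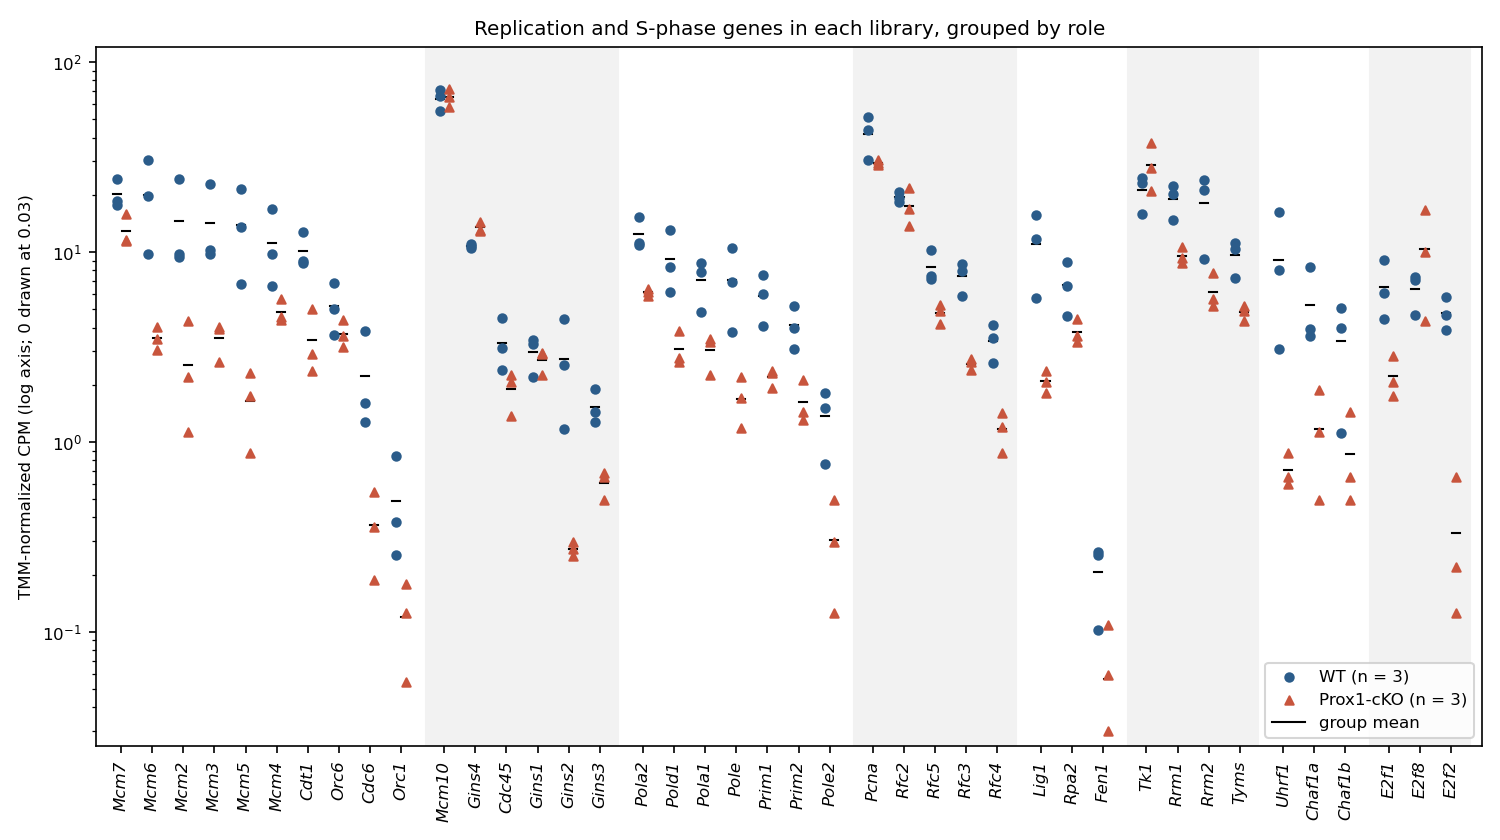
Level of each of the 41 genes in each library, in TMM-normalized CPM on a log axis, grouped by role from origin licensing on the left to E2F factors on the right. Circles are the 3 WT and triangles the 3 Prox1-cKO libraries, and bars are group means. Most triangles lie below the circles of the same gene, whereas Mcm10, Gins4, Tk1 and E2f8 do not follow this pattern; a level of 0 (Fen1 in Prox1-cKO replicate 1) is drawn at 0.03.

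Of the 9 origin licensing genes tested, 8 were lower (Cdc6 passed the filter through WT alone), and the median log2 fold change was −2.02. Counts by role, here and below, stand beside 20.2% lower among all genes tested. The subunits of the MCM2-7 ring, which unwinds the parental strands, were all lower. Mcm5 was at 21.5, 13.5 and 6.81 CPM in WT and 1.75, 0.874 and 2.31 CPM in Prox1-cKO, a fall of 8.51-fold (log2 fold change −3.09 ± 0.49, adjusted p = 0.00295, edgeR). Mcm6 was at 30.5, 19.8 and 9.81 CPM against 3.50, 3.06 and 4.02 CPM (log2 fold change −2.51 ± 0.39, adjusted p = 0.0028). Mcm2 was at 24.2, 9.39 and 9.81 CPM against 1.12, 2.18 and 4.32 CPM (log2 fold change −2.50 ± 0.53, adjusted p = 0.00985). The groups did not overlap for any of these 3 genes, although the WT libraries spanned a wide range. Without WT replicate 1 the log2 fold change of Mcm2 was −1.91, and without Prox1-cKO replicate 3 it was −3.10.

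The other ring subunits had smaller log2 fold changes. Mcm3 was at 22.7, 10.2 and 9.81 CPM in WT and 3.94, 2.62 and 4.02 CPM in Prox1-cKO (log2 fold change −2.02 ± 0.37, adjusted p = 0.0053 by edgeR). Mcm4 was at 16.8, 9.76 and 6.66 CPM against 5.62, 4.37 and 4.56 CPM (log2 fold change −1.20 ± 0.33, adjusted p = 0.026). Mcm7 was at 24.2, 18.6 and 17.6 CPM against 11.4, 11.6 and 15.8 CPM (log2 fold change −0.64 ± 0.19, adjusted p = 0.0317). For Mcm7 the highest Prox1-cKO library came close to the lowest WT library, and 12.6% of its exon bases are shared with Ap4m1. Its call was lost without WT replicate 1 (adjusted p = 0.108), WT replicate 2 (0.058), Prox1-cKO replicate 1 (0.106) or Prox1-cKO replicate 2 (0.118). The call of Mcm4 was lost without WT replicate 1 (adjusted p = 0.0628) or any of the Prox1-cKO libraries (0.055 to 0.0913).

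The ratio of Mcm7 to Mcm5 reads was 1.12, 1.38 and 2.59 in WT and 6.54, 13.3 and 6.85 in Prox1-cKO. These genes were paired after their values were seen, so the ratio is a description.

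Of the loaders of the ring, Cdc6 and Cdt1 were lower. CDC6 and CDT1 bring MCM2-7 to origins, and CDT1 is normally destroyed once S phase begins. Cdc6 was at 3.84, 1.60 and 1.27 CPM in WT and 0.187, 0.546 and 0.355 CPM in Prox1-cKO (log2 fold change −2.59 ± 0.56, adjusted p = 0.0108 by edgeR), with only 3 to 10 reads in the Prox1-cKO libraries. Without WT replicate 1 its log2 fold change was −1.94. Cdt1 was at 12.7, 8.92 and 8.74 CPM against 2.37, 2.89 and 5.03 CPM (log2 fold change −1.56 ± 0.30, adjusted p = 0.00693). Orc6, a subunit of the origin recognition complex, was at 6.88, 5.01 and 3.66 CPM against 4.37, 3.17 and 3.61 CPM and was not called (log2 fold change −0.48 ± 0.27, adjusted p = 0.202). Orc1, the subunit whose level changes through the cell cycle in human cells, had 19, 9 and 5 reads in WT and 2, 1 and 3 reads in Prox1-cKO. The groups of Orc1 did not overlap, and in the fit without a filter its adjusted p was 0.0542.

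Of the rest of the origin recognition complex, Orc2 was lower (log2 fold change −0.65 ± 0.20, adjusted p = 0.0354, edgeR), with 29.8% of its exon bases shared with Nif3l1. Orc3, Orc4 and Orc5 were not called, at log2 fold changes of 0.17 ± 0.11, 0.02 ± 0.12 and −0.23 ± 0.13.

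Genes for helicase activation were divided, with 2 of 6 lower, against 20.2% of all genes tested. These were Gins2 and Gins3, both of which passed the filter through WT alone. The median log2 fold change of the 6 was −0.48. GINS is a ring of 4 subunits that joins CDC45 and MCM2-7 in the active helicase. Gins2 was at 4.45, 2.53 and 1.17 CPM in WT and 0.250, 0.273 and 0.296 CPM in Prox1-cKO, or 101, 60 and 23 reads against 4, 5 and 5 (log2 fold change −3.29 ± 0.56, adjusted p = 0.00403 by edgeR). Gins3 was at 1.90, 1.43 and 1.27 CPM against 0.687, 0.491 and 0.651 CPM (log2 fold change −1.33 ± 0.31, adjusted p = 0.0144). Both were separate between the genotypes. The call of Gins3 was lost without WT replicate 1 or Prox1-cKO replicate 2 (adjusted p = 0.0593 and 0.0681). Gins2 shares 67.3% of its exon bases with Gse1 on the opposite strand, and with the strand of counting not given, its reads may be cut or mixed.

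The remaining GINS subunits were not called. Gins1 was at 3.44, 3.28 and 2.19 CPM in WT and 2.94, 2.89 and 2.25 CPM in Prox1-cKO (log2 fold change −0.14 ± 0.26, adjusted p = 0.698, edgeR). Gins4 was at 11.1, 10.8 and 10.5 CPM against 13.1, 12.9 and 14.4 CPM, so that every Prox1-cKO library lay above every WT library, (log2 fold change 0.32 ± 0.13, adjusted p = 0.0898). With library totals alone the log2 fold change of Gins4 was −0.089. The ratio of Gins4 to Gins3 reads was 5.84, 7.53 and 8.24 in WT and 19.1, 26.2 and 22.2 in Prox1-cKO, again as a description.

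Cdc45, the third part of the active helicase, was at 4.50, 3.11 and 2.39 CPM in WT and 2.25, 1.37 and 2.07 CPM in Prox1-cKO. All of its Prox1-cKO libraries lay below the WT libraries, but the difference was not called (log2 fold change −0.82 ± 0.32, adjusted p = 0.0811 by edgeR); without WT replicate 3 the adjusted p was 0.0338. Mcm10, which helps to activate the assembled helicase, was at 55.1, 66.0 and 70.8 CPM in WT and 58.2, 72.1 and 65.7 CPM in Prox1-cKO. Its log2 fold change was 0.03 ± 0.14 (adjusted p = 0.887), and no annotated exon of another gene overlaps it. The sign of this small difference turned with the scaling and with the library left out.

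Polymerase and primase genes were lower throughout, 7 of 7, with log2 fold changes from −2.12 to −1.02. Polymerase alpha and its primase start each strand with a short RNA-DNA primer. Pola1 was at 8.78, 7.83 and 4.83 CPM in WT and 3.37, 3.50 and 2.25 CPM in Prox1-cKO (log2 fold change −1.23 ± 0.29, adjusted p = 0.0134, edgeR). Pola2, which encodes the accessory subunit, was at 15.2, 11.2 and 10.9 CPM against 6.18, 5.84 and 6.39 CPM (log2 fold change −1.02 ± 0.18, adjusted p = 0.00466). The primase subunits Prim1 and Prim2 had log2 fold changes of −1.42 ± 0.27 and −1.34 ± 0.30 (adjusted p = 0.00652 and 0.0118). The 4 subunits of this complex therefore spanned a narrow range, from −1.42 to −1.02, and all were lower. Without Prox1-cKO replicate 2 the adjusted p of Prim2 was 0.0527.

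Polymerase epsilon copies the leading strand and polymerase delta the lagging strand. Pole was at 10.5, 6.99 and 3.81 CPM in WT and 2.19, 1.69 and 1.18 CPM in Prox1-cKO (log2 fold change −2.07 ± 0.40, adjusted p = 0.00693 by edgeR). Pole2, its second subunit, was at 1.81, 1.52 and 0.762 CPM against 0.125, 0.491 and 0.296 CPM (log2 fold change −2.12 ± 0.52, adjusted p = 0.0165). Pold1, the catalytic subunit of polymerase delta, was at 13, 8.38 and 6.15 CPM against 2.75, 2.62 and 3.85 CPM (log2 fold change −1.58 ± 0.31, adjusted p = 0.00712). The groups did not overlap in any of the 3, and Pole2, with 2 to 9 reads in the Prox1-cKO libraries and past the filter through WT alone, lost its call without WT replicate 1, Prox1-cKO replicate 1 or Prox1-cKO replicate 3 (adjusted p = 0.053 to 0.0592).

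The accessory subunits of the same polymerases were mixed. Pole4, a histone-fold subunit of polymerase epsilon, was at 15.5, 14.7 and 12.3 CPM in WT and rose to 34.4, 31.5 and 41.2 CPM in Prox1-cKO (log2 fold change 1.33 ± 0.15, adjusted p = 8.19e-04, edgeR). Pole3, its histone-fold partner, was not called (log2 fold change 0.08 ± 0.14). Pold3 was lower (log2 fold change −0.57 ± 0.15, adjusted p = 0.0253), and Pold2 and Pold4 were not called (−0.09 ± 0.20 and −0.12 ± 0.21).

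**Figure D2:**
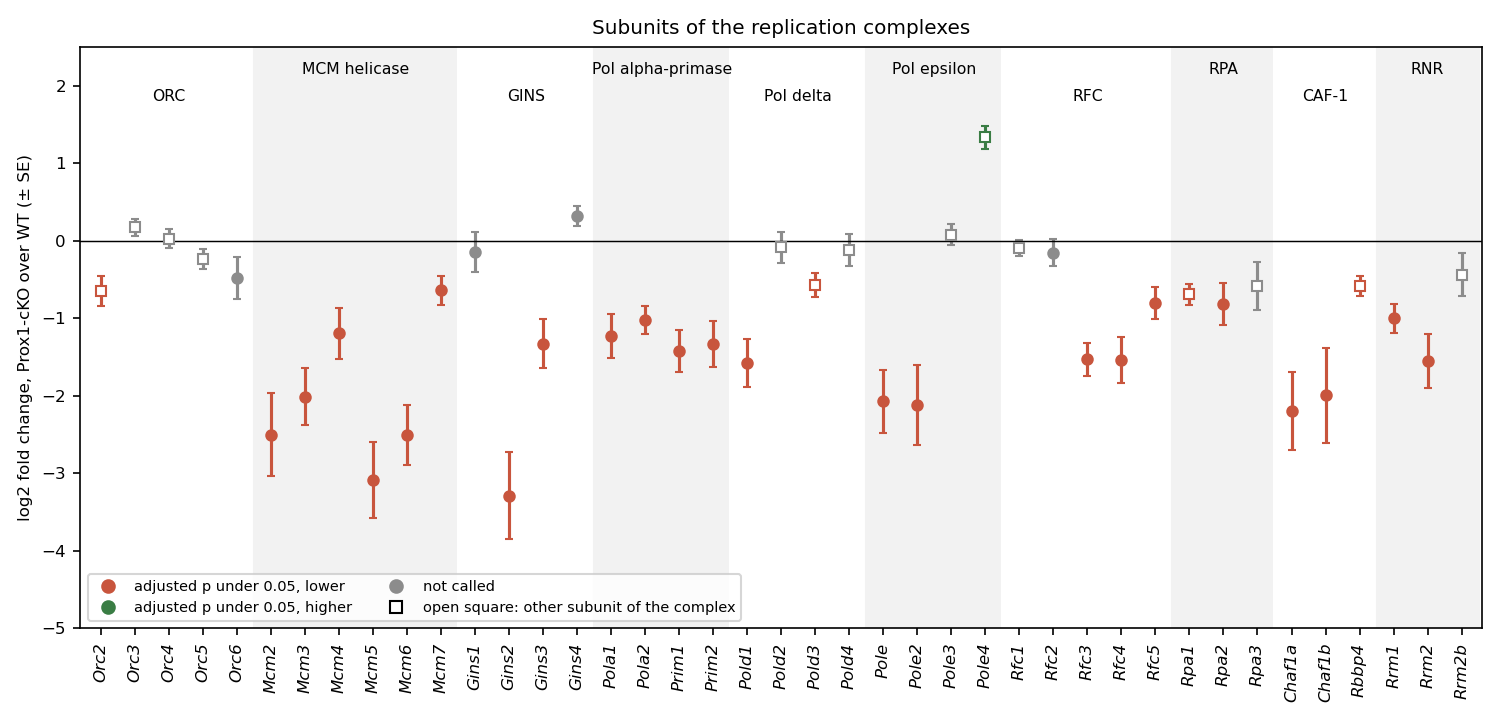
Log2 fold change of Prox1-cKO over WT with its standard error for the subunits of 10 complexes, n = 3 libraries each. Filled circles are members of the gene set and open squares other subunits of the same complexes; red marks genes that were lower, green higher and grey not called. All 6 MCM2-7 subunits and all 4 subunits of polymerase alpha-primase lie below 0 in red. ORC, GINS, RFC, RPA, ribonucleotide reductase (RNR) and polymerases delta and epsilon hold called and uncalled subunits side by side.

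The clamp and its loader were lower in 3 of 5 genes, with a median log2 fold change of −0.80. Pcna, the ring that holds polymerases on DNA and also serves in DNA repair, was at 51.2, 44.1 and 30.6 CPM in WT and 30.6, 28.7 and 29.3 CPM in Prox1-cKO. Its lowest WT library was level with its highest Prox1-cKO library (30.64 and 30.55 CPM), and it was not called (log2 fold change −0.51 ± 0.18, adjusted p = 0.0645 by edgeR); without WT replicate 3 the adjusted p was 0.00435. Of the loader, Rfc3 was at 8.6, 7.95 and 5.84 CPM against 2.62, 2.40 and 2.72 CPM (log2 fold change −1.53 ± 0.21, adjusted p = 0.00188). Rfc4 was at 4.10, 3.54 and 2.59 CPM against 0.875, 1.20 and 1.42 CPM (log2 fold change −1.54 ± 0.29, adjusted p = 0.00635). Rfc5 was at 10.2, 7.49 and 7.17 CPM against 4.87, 4.15 and 5.26 CPM (log2 fold change −0.80 ± 0.21, adjusted p = 0.0198). Rfc3, Rfc4 and Rfc5 were each separate between the genotypes. Rfc5 was not called without WT replicate 1, Prox1-cKO replicate 1 or Prox1-cKO replicate 2 (adjusted p = 0.0575 to 0.0814). Rfc2, at 20.8, 19.2 and 18.4 CPM against 13.7, 16.9 and 21.8 CPM, overlapped and was not called (log2 fold change −0.15 ± 0.18, adjusted p = 0.536). Rfc1, the large subunit, was not called either (−0.10 ± 0.11). Exon bases shared with another gene came to 12.7% in Rfc4 (Eif4a2), 15.1% in Rfc2 (Lat2) and 10.7% in Rfc5 (Wsb2).

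On the lagging strand, Lig1, the ligase that seals Okazaki fragments, was at 15.7, 11.7 and 5.74 CPM in WT and 1.81, 2.08 and 2.37 CPM in Prox1-cKO (log2 fold change −2.41 ± 0.37, adjusted p = 0.00261 by edgeR). Its groups were separate by more than 2-fold. Rpa2, a subunit of the single-strand binding protein RPA, was at 8.86, 6.61 and 4.62 CPM against 4.44, 3.60 and 3.37 CPM (log2 fold change −0.82 ± 0.27, adjusted p = 0.0463). Leaving out any library other than WT replicate 3 ended the call of Rpa2 (adjusted p = 0.0712 to 0.161), as did both limma fits. Its partner Rpa1 was lower as well (log2 fold change −0.69 ± 0.13, adjusted p = 0.0066), while Rpa3 was not called (−0.59 ± 0.31, adjusted p = 0.174). Fen1, the flap nuclease that trims the fragments, had 6, 6 and 2 reads in WT and 0, 2 and 1 reads in Prox1-cKO, where 0 reads allow up to 3. Of the exon bases of Fen1, 84.2% are shared with Gm10143 on the opposite strand, and such reads may have been set aside as ambiguous, so its level was not assessed.

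Among the genes of nucleotide supply, 3 of 4 were lower. Ribonucleotide reductase makes deoxynucleotides from ribonucleotides, with RRM1 as the large subunit and RRM2 as the small subunit of S phase. Rrm1 was at 22.3, 20.1 and 14.8 CPM in WT and 9.25, 8.74 and 10.6 CPM in Prox1-cKO (log2 fold change −1.0 ± 0.18, adjusted p = 0.00535 by edgeR). Rrm2 was at 24.0, 21.2 and 9.20 CPM against 5.19, 5.62 and 7.75 CPM (log2 fold change −1.55 ± 0.35, adjusted p = 0.0124). Tyms, thymidylate synthase, was at 10.4, 11.2 and 7.27 CPM against 5.19, 4.91 and 4.32 CPM (log2 fold change −1.0 ± 0.21, adjusted p = 0.00899). Each of the 3 was separate between the genotypes, and Rrm2 missed the threshold without Prox1-cKO replicate 2 (adjusted p = 0.0525). Rrm2b, the small subunit used outside S phase, was not called (log2 fold change −0.44 ± 0.28, adjusted p = 0.258).

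Tk1, the cytosolic thymidine kinase of the salvage route, was not called. It was at 23.2, 24.5 and 15.9 CPM in WT and 37.5, 27.6 and 20.8 CPM in Prox1-cKO. The groups overlapped (log2 fold change 0.43 ± 0.24, adjusted p = 0.201 by edgeR).

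All 3 genes of chromatin copying were lower, but Chaf1a and Chaf1b passed the filter through WT alone. Uhrf1, which brings the maintenance methyltransferase DNMT1 to newly copied DNA, was at 16.1, 8.0 and 3.10 CPM in WT and 0.875, 0.601 and 0.651 CPM in Prox1-cKO, a fall of 12.8-fold (log2 fold change −3.68 ± 0.61, adjusted p = 0.00369 by edgeR). The WT libraries of Uhrf1 spanned 5.21-fold, the widest WT range among the members, and without WT replicate 1 the log2 fold change was −2.96. Chaf1a and Chaf1b encode subunits of CAF-1, which deposits histones behind the fork. Chaf1a was at 8.33, 3.91 and 3.61 CPM against 1.87, 0.491 and 1.12 CPM (log2 fold change −2.20 ± 0.51, adjusted p = 0.0133), with 52.5% of its exon bases shared with Ubxn6. Chaf1b was at 3.97, 5.09 and 1.12 CPM against 1.44, 0.491 and 0.651 CPM (log2 fold change −2.00 ± 0.61, adjusted p = 0.0367). Chaf1b was called although WT replicate 3 lay below Prox1-cKO replicate 1, and leaving out any library other than WT replicate 3 or Prox1-cKO replicate 1 ended the call (adjusted p = 0.0846 to 0.122), as did both limma fits.

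The E2F factors were divided. E2f2, an activator, was at 5.82, 4.67 and 3.86 CPM in WT and 0.125, 0.218 and 0.651 CPM in Prox1-cKO, or 132, 111 and 76 reads against 2, 4 and 11 (log2 fold change −3.83 ± 0.47, adjusted p = 0.00118 by edgeR). It passed the filter through WT alone, and without Prox1-cKO replicate 3 its log2 fold change was −4.72. E2f1, another activator, was at 9.04, 4.42 and 6.10 CPM against 1.75, 2.08 and 2.84 CPM (log2 fold change −1.55 ± 0.32, adjusted p = 0.00865). Both were separate between the genotypes. E2f8, an atypical member that represses transcription and is itself a target of E2F, was at 7.41, 7.15 and 4.68 CPM against 4.31, 9.99 and 16.6 CPM. Its Prox1-cKO libraries thus ranged from below all WT libraries to above all of them, and it was not called (log2 fold change 0.68 ± 0.43, adjusted p = 0.254); only without Prox1-cKO replicate 1 was it called, as higher (adjusted p = 0.0423). E2f8 shares 11.2% of its exon bases with Gm2788. E2f7, the other atypical factor, named here after its values were seen, was at 2.25, 1.31 and 0.610 CPM in WT and 0.375, 0.382 and 3.55 CPM in Prox1-cKO and was not called.

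**Figure D3:**
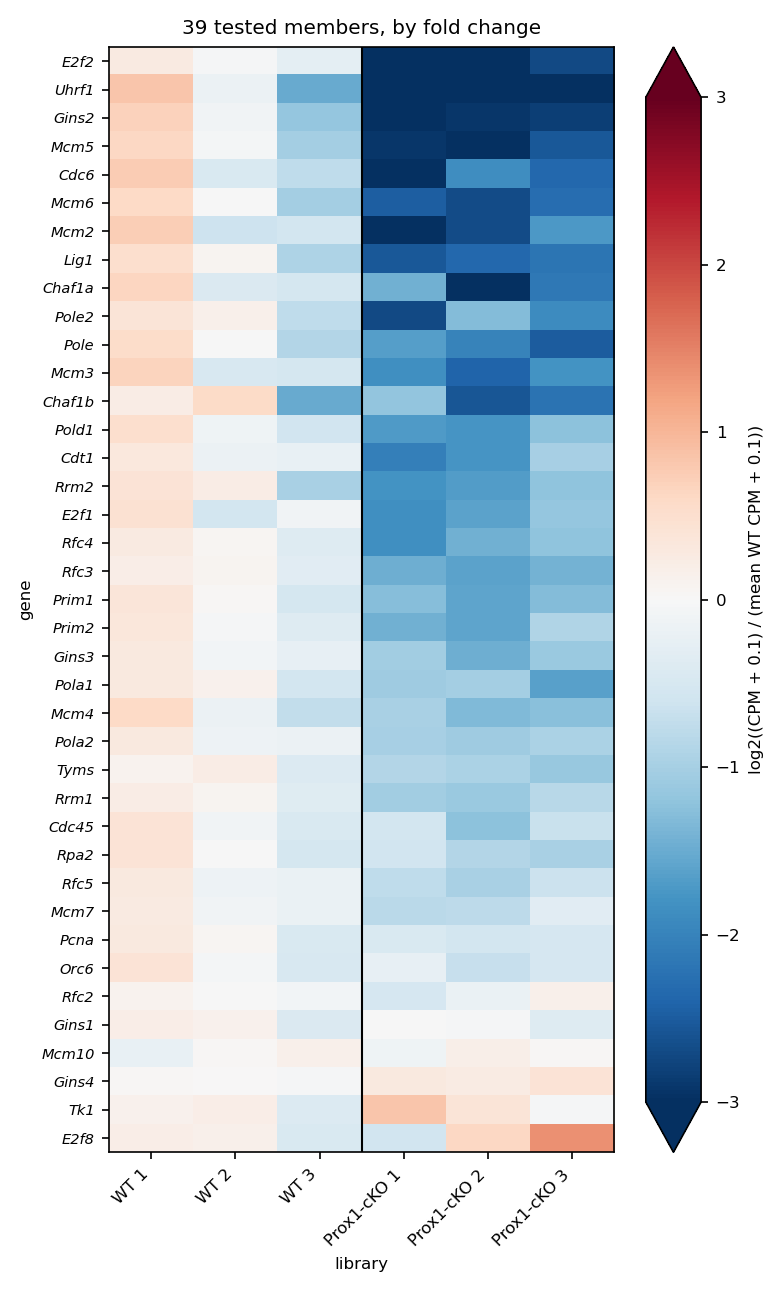
Level of the 39 tested genes in each library relative to the WT mean, as log2((CPM + 0.1) / (mean WT CPM + 0.1)), with genes ordered by fold change. Blue is below and red above the WT mean. WT replicate 1 is mostly red and WT replicate 3 mostly pale blue, and the 3 Prox1-cKO columns are blue from E2f2 at −3.83 down to Mcm7 at −0.64 and pale or red in most of the last rows.

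Per kilobase of exon, the order of the levels changed between genotypes. In WT, Pcna was highest at 17.5 CPM per kb, followed by Mcm10 (8.32), Gins4 (7.98), Rrm2 (6.54), Mcm7 (4.55), Mcm6 (4.29) and Tk1 (4.08). In Prox1-cKO, Pcna was at 12.3 CPM per kb, followed by Gins4 (9.99), Mcm10 (8.49), Tk1 (5.51), Mcm7 (2.92), Rfc2 (2.77) and Rrm2 (2.23), while Mcm6 was at 0.756. The values of Mcm10 and Gins4 lay close together in each genotype, and no test was made between genes. Of the 7 genes named for Prox1-cKO, only Mcm7 and Rrm2 were called lower.

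The E2F words were unevenly placed among the members. They lay in the windows of 16 of the 26 members called lower that had a window, in 0 of the 6 that were tested and not called (Mcm10, Cdc45, Pcna, Orc6, Tk1 and E2f8), and in that of Orc1. The members called lower whose windows held none were E2f1, Mcm2, Rrm1, Rrm2, Tyms, Prim1, Rfc4, Rfc5, Rpa2 and Chaf1b. The E2f1 window, chr2:154569377-154569676 on the minus strand, lies wholly inside the longest annotated span of its gene. That span begins at 154569892, so the bases before this 5′ end of E2f1 were not searched. Mcm4, Gins1, Gins2, Gins4, Pole, Prim2 and Rfc2 had no entry. The words were counted after the calls were known, and no test was made.

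Other genes of the machinery are set beside the all-gene shares of 20.2% lower and 14.1% higher. Of 20 other subunits and cofactors of the same complexes that were tested, 4 were lower (Chtf18, Rpa1, Orc2 and Pold3) and 1, Pole4, was higher, a share lower that is near that of all genes, and the median log2 fold change was −0.11. Chtf18, of an alternative clamp loader, was at 1.37, 1.94 and 0.864 CPM in WT and 0.312, 0.382 and 0.178 CPM in Prox1-cKO (log2 fold change −2.23 ± 0.45, adjusted p = 0.00787 by edgeR). It passed the filter through WT alone, so its call, and the count that holds it, are descriptions. The summed level of this list was 316 to 338 CPM in WT and 315 to 344 CPM in Prox1-cKO, ranges that overlap. With library totals alone the count of 4 lower genes was 12. In that setting 6060 of all 14843 genes tested were lower and 725 higher.

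Among the genes of origin firing and fork protection, 10 of 16 were lower, against 20.2% of all genes tested. The median log2 fold change was −1.08. Clspn, an adaptor of the replication checkpoint, was at 4.10, 3.28 and 1.53 CPM in WT and 0.125, 0.328 and 0.473 CPM in Prox1-cKO (log2 fold change −3.23 ± 0.53, adjusted p = 0.00344 by edgeR). Top2a, which untangles copied DNA, had a log2 fold change of −3.17 ± 0.43 (adjusted p = 0.00167). Ticrr and Cdc7, which act in the firing of origins, had −2.90 ± 0.62 and −2.86 ± 0.60 (adjusted p = 0.00976 and 0.00943 by edgeR). Clspn, Ticrr and Cdc7 passed the filter through WT alone, so their calls, and the count and median that hold them, are descriptions. The remaining 6 genes of this list were not called.

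Of 17 other genes of nucleotide metabolism, 4 were lower and 2 higher, near the shares of all genes (20.2% and 14.1%), with a median of −0.02. Dck, a deoxynucleoside kinase, had a log2 fold change of −1.18 ± 0.33 (adjusted p = 0.0263 by edgeR), and Cad, of pyrimidine synthesis, −0.92 ± 0.15 (adjusted p = 0.00306). Samhd1, which degrades deoxynucleotides, was lower (−0.90 ± 0.28, adjusted p = 0.0407) with WT replicate 3 inside the Prox1-cKO range. Paics, of purine synthesis, was higher (0.63 ± 0.15, adjusted p = 0.0167). With library totals alone no gene of this list was called higher, against 8 lower. Of all 14843 genes tested, 6060 were lower and 725 higher in that setting.

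Other E2F, DP and pocket protein genes and their G1 targets showed 3 of 18 lower and 1 higher, both shares below those of all genes (20.2% and 14.1%), with a median of −0.08. With library totals alone 8 were lower and 0 higher, with a median of −0.49. All 14843 genes tested had 6060 lower, 725 higher and a median of −0.43 in that setting. Rbl1, the pocket protein p107, was at 14.1, 9.89 and 6.61 CPM in WT and 2.81, 1.75 and 2.96 CPM in Prox1-cKO (log2 fold change −2.03 ± 0.33, adjusted p = 0.00327 by edgeR). Rbl2, the pocket protein of resting cells, was at 23.0, 25.4 and 30 CPM against 45.4, 43.2 and 34.0 CPM (log2 fold change 0.64 ± 0.16, adjusted p = 0.0161). Rb1, the third pocket protein gene, was not called (−0.35 ± 0.17, adjusted p = 0.157), and Rbl2 was not called with library totals alone. Ccne1, cyclin E1, and Cdc25a, a phosphatase that activates CDK2, were lower (−1.87 ± 0.57 and −1.36 ± 0.23, adjusted p = 0.0372 and 0.00406). E2f3, E2f4, E2f5 and E2f6 were not called.

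Of 10 other genes that handle new chromatin, 5 were lower, against 20.2% of all genes tested, with a median of −0.49. With library totals alone 9 were lower, beside 6060 of all 14843 genes tested. Asf1b, a histone chaperone of dividing cells, had a log2 fold change of −3.23 ± 0.81 (adjusted p = 0.0186 by edgeR). Cenpu and Hells had −2.31 ± 0.44 and −1.65 ± 0.40 (adjusted p = 0.00612 and 0.017 by edgeR), and Cenpu shares 26.7% of its exon bases with Primpol. Asf1b and Cenpu passed the filter through WT alone, so their calls, and the count that holds them, are descriptions. Dnmt1, the methyltransferase partner of UHRF1, was at 42.2, 26.1 and 25.4 CPM in WT and 11, 9.99 and 11.1 CPM in Prox1-cKO (−1.54 ± 0.21, adjusted p = 0.00181). Of CAF-1, the third subunit Rbbp4, which also serves other complexes, was lower by less (−0.58 ± 0.13, adjusted p = 0.0126).

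Upstream of S phase some G1 genes differed, and downstream of it most genes of mitosis were lower. Ccnd1, the cyclin D1 of G1, was at 65.4, 51.7 and 49.1 CPM in WT and 6.25, 5.41 and 5.5 CPM in Prox1-cKO (log2 fold change −3.28 ± 0.16, adjusted p = 2.66e-05 by edgeR), with 23.4% of its exon bases shared with LTO1. Ccnd3 and the CDK inhibitor Cdkn1a were higher (1.03 ± 0.21 and 1.43 ± 0.35, adjusted p = 0.00792 and 0.0168), and Cdkn2c was lower (−1.19 ± 0.26, adjusted p = 0.0102). In all 4 of 11 genes of this list were lower and 2 higher, against all-gene shares of 20.2% and 14.1%. With library totals alone 7 were lower and 2 higher, beside 6060 and 725 of all 14843 genes tested. Of 20 genes of mitosis, 18 were lower, against 20.2% of all genes tested, with a median of −2.79. Among them was Cdc20, an activator of the anaphase-promoting complex (−4.79 ± 0.41, adjusted p = 2.64e-04 by edgeR). The checkpoint kinase gene Bub1 (−3.95 ± 0.54, adjusted p = 0.00174) and Aurkb (−3.66 ± 0.51, adjusted p = 0.00188) were lower too. Cdc20, Bub1 and Aurkb passed the filter through WT alone, so their calls, and the count and median that hold them, are descriptions. The summed level of the mitosis list was 192, 206 and 90.7 CPM in WT and 31.4, 25.7 and 29.2 CPM in Prox1-cKO, so WT replicate 3 was low here too.

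Replication of mitochondrial DNA, which uses its own polymerase, showed no gene called lower by edgeR (1 at an unadjusted p under 0.05; 0 with DESeq2 and 0 with limma). Of 12 genes, 4 were higher: Tfb2m (log2 fold change 0.80 ± 0.14, adjusted p = 0.00397 by edgeR), the helicase gene Twnk (0.76 ± 0.16, adjusted p = 0.00964), Polg2 (0.66 ± 0.20, adjusted p = 0.035) and Tfam (0.55 ± 0.11, adjusted p = 0.0077). Among all genes tested, 14.1% were higher. The median of the 12 genes was 0.21. With library totals alone it was −0.20, with 2 genes lower and 1 higher, beside 6060 and 725 of all 14843 genes tested.

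**Figure D4:**
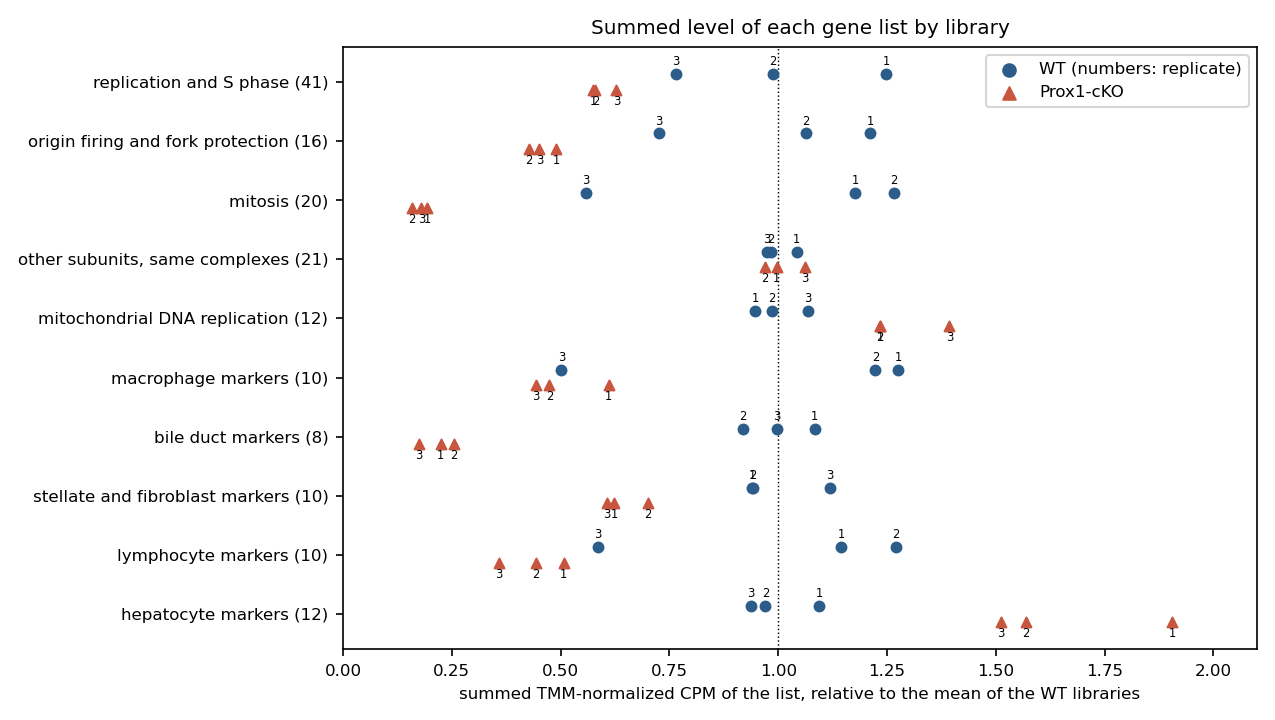
Summed TMM-normalized CPM of each gene list in each library, relative to the mean of the 3 WT libraries (dotted line at 1). Circles are WT and triangles Prox1-cKO (3 libraries each), with replicate numbers beside them and the number of genes in parentheses. The 41 replication genes lie at 0.764 to 1.25 for WT and at 0.575 to 0.628 for Prox1-cKO, WT replicate 3 is the lowest WT library there and in the mitosis list, and in the macrophage list it falls among the Prox1-cKO libraries.

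Markers of macrophages, neutrophils, bile duct and stellate cells were mostly lower in Prox1-cKO, and the part of other cells in these results was not tested. The counts that follow stand beside 20.2% lower and 14.1% higher among all genes tested. Some markers, such as Trem2, Cldn7, S100a8 and Cxcr2, passed the filter through WT alone, so the counts that hold them are descriptions. Of 10 macrophage markers, 8 were lower (Timd4, for example, at a log2 fold change of −1.19 ± 0.38, adjusted p = 0.0426 by edgeR), and their summed level was 1479, 1419 and 582 CPM in WT and 708, 550 and 514 CPM in Prox1-cKO. WT replicate 3, the lowest WT library for 38 of the 41 replication genes, thus lay inside the Prox1-cKO range for macrophage markers. Lymphocyte markers summed to 39.5 to 85.8 CPM in WT and 24.1 to 34.2 CPM in Prox1-cKO, with 3 of 9 lower, and neutrophil markers to 16.6 to 22.4 and 4.56 to 6.37 CPM, with 4 of 4 tested lower. Among the latter Ly6g had no read in any WT library and Mpo none in any Prox1-cKO library. Bile duct markers summed to 288 to 340 CPM against 54.4 to 79.9 CPM, with 5 of 7 lower. That sum came mainly from Spp1 and Cdh1, at 82.3 and 34.6 CPM per kb of exon in WT and 19.1 and 5.76 in Prox1-cKO. Krt19 was at 2.07 CPM per kb in WT and 0.591 in Prox1-cKO, and Sox9 at 2.07 and 1.39. Markers of stellate cells and fibroblasts summed to 572 to 681 CPM against 370 to 426 CPM, with 6 of 10 lower. Endothelial markers overlapped, at 415 to 552 CPM against 312 to 497 CPM, with 2 of 8 lower, near the share of all genes. Markers of erythroid precursors were at 113 to 184 CPM against 170 to 204 CPM, with 2 of 5 tested higher, while the defining gene Gata1 had at most 2 reads in any library. Hepatocyte markers were higher in 9 of 12 genes, Apoa1 among them (log2 fold change 1.32 ± 0.22, adjusted p = 0.00349), and Alb was not called.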

How the data were processed

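mRNA of 6 mouse livers was analysed as 6 libraries, grouped by genotype from the sample titles. The authors deposited whole-read counts per gene, made per the submitters' processing notes with HISAT2 2.1.0 and HTSeq; DESeq and the build GRCh38, a human assembly, are named too, while the identifiers are those of the mouse. A second table, named FPKM, holds the same reads as CPM (largest difference 9.2e-05 reads) and was not used.

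Counts were fitted with edgeR 4.0.16 in R 4.3.3: filterByExpr by genotype, TMM, a quasi-likelihood test of genotype without covariates and Benjamini-Hochberg adjustment over 14843 genes at 0.05. The fold change error is the absolute log2 fold change divided by the square root of F. Precision at these depths is that of the 3 replicates. Few reads limit Orc1, Fen1, Cdc6, Gins2, Pole2 and E2f2, and also Gins3, Chaf1a, Chaf1b and Uhrf1. The lowest Prox1-cKO library of these last genes held 9, 9, 9 and 11 reads. The fit was tested on simulated counts.

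All 41 members and Prox1 are named, and from each other list up to 4 called genes of largest change and uncalled subunits of a described complex (Rbbp4 and E2f7 are exceptions). Markers are given by counts, summed levels and up to 2 first-listed genes. Marker genes with few reads, and Spp1, Cdh1 and Sox9, were named after their values were seen. Some genes that these rules would name are not reported here. Members and lists were chosen with earlier results of these data known. Alternatives were RLE scaling (DESeq2's size factors), scaling by library totals, a filter of only 1 count in all, a stricter one of 10 counts in each library, a replicate block, DESeq2 1.42.0, limma-trend (limma 3.58.1) on log2(CPM + 1) or log2(CPM + 0.1), a 2-fold minimum and each library left out; leaving out members that share at least 10% of exon bases was added after seeing the data. Exons were from GENCODE M21, which holds 29641 of the 29667 identifiers, and promoters from RefSeq on GRCm38.p6; 34 members matched. The build of the counts was not settled, so coordinates are those of these references. Figures used matplotlib.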

Additional observations from a re-analysis of the deposited data

How the results depend on the processing

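The number of replication genes that were lower, 30 of 39 tested, was 30 with RLE scaling and with DESeq2, 34 with library totals alone, 31 without a filter, 23 of 32 with at least 10 counts in every library, 28 with either limma fit (without Rpa2 and Chaf1b), 27 with the 2-fold minimum and 25 of 32 without the members that share exon bases. Leaving out 1 library gave 22 (without Prox1-cKO replicate 2) to 32 (without WT replicate 3), and with the replicate block it was 29, Mcm7 being the call lost. The count over all genes moved too, from 2999 of 14843 lower to 6060 of 14843 with library totals alone. Of the same 14843 genes, 2953 were lower with RLE scaling, 3101 with DESeq2 and 2988 with the replicate block. The limma fits gave 2952 on log2(CPM + 1) and 2962 on log2(CPM + 0.1). The all-gene count was 3394 of 27546 without a filter and 2379 of 12888 with at least 10 counts in every library. It was 1999 of 15423 without Prox1-cKO replicate 2 and 3468 of 15327 without WT replicate 3. No member was higher in any setting, except 1, E2f8, without Prox1-cKO replicate 1 (leave-one-out range 0 to 1). The median log2 fold change of −1.42 moved to −1.84 with library totals alone and to −0.99 with limma on log2(CPM + 1), and lay between −1.58 and −1.19 with a library left out. The 4 other subunits that were lower became 12 with library totals alone, 1 with the 2-fold minimum, 3 with the replicate block and 2 to 5 with a library left out. The sign of Mcm10 turned with library totals alone (−0.37), at least 10 counts (−0.015) and with a library left out (−0.063 without WT replicate 1 to 0.13 without WT replicate 3), that of Gins4 with library totals alone (−0.089), and that of Rfc2 with a library left out (−0.33 without Prox1-cKO replicate 3 to 0.0048 without Prox1-cKO replicate 1). The cause was not tested. Library totals alone shift all genes down; the 10-count filter drops members with few Prox1-cKO reads, and the added 1 shrinks low genes.

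Replicate numbers were shared by the genotypes, but nothing in the labels pairs them. Deviations from the group means correlated at 0.176, 0.0833 and 0.169 for the same number, so not every pair exceeded 0.1 and the samples were taken to share only a number. Each library correlated best with its own number, which is a hint from the data and not from the design.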
